A study of Mus musculus with 6 samples.

Results

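The immediate early genes Fos, Fosb, Fosl2, Jun, Junb, Jund, Egr1, Ier2, Ier3 and Atf3 were read in surface ectoderm (SE) and neural ectoderm (NE) of wild-type CD-1 mouse embryos at E8.5. SE is the outer layer that forms the epidermis, and NE is the layer that folds into the neural tube. Both were taken at the forebrain level, after a digestion of the embryos in pancreatin and trypsin, with tungsten needles. Each of the 3 SE and 3 NE arrays held RNA pooled from many embryos, and the SE pools were made from more embryos than the NE pools. The 10 genes were found as all probes whose symbol in the platform annotation is one of these names, which gave 13 of the 45281 probes on the Illumina MouseWG-6 v2 array. No array held tissue that had not been dissected and digested, so the level of these genes in the embryo and any change during the preparation cannot be told apart.

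Immediate early genes are transcribed within minutes of a growth factor, a stretch or a stress, and their transcription needs no newly made protein. The proteins of the Fos and Jun families pair through leucine zippers into the AP-1 factor, Egr1 binds GC-rich sites through zinc fingers, and many of the targets of both adjust growth, survival and cell shape. The transcripts are short-lived, and in several adult tissues they are known to rise while cells are released with enzymes. These are statements of background and not results of the arrays.

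The stretch before the transcription start was searched for short known sequences. Windows of 250 bases upstream were taken from the RefSeq promoter table (build GRCm38.p6), which matched 8 of the 10 genes. Both strands were searched for the core of the cyclic AMP response element (TGACGT), the TATA box (TATAAA), the CCAAT box (CCAAT), the AP-1 site (TGACTCA), the Egr1 site (GCGGGGGCG) and the CArG box of serum response factor, and no match printed here overlapped another. The windows of Fos, the Fos relative Fosl2, Jun, Junb and the stress factor gene Atf3 are printed because the comparison of SE with NE turns on these genes. They lie at chr12:85473640-85473889 on the plus strand for Fos, chr5:32136222-32136471 on the plus strand for Fosl2, chr4:95052223-95052472 on the minus strand for Jun, chr8:84978749-84978998 on the minus strand for Junb and chr1:191183334-191183583 on the minus strand for Atf3. Each is written 5′ to 3′ in the direction of transcription, ends at the last base before the start, and has the matches in capitals.
Fos: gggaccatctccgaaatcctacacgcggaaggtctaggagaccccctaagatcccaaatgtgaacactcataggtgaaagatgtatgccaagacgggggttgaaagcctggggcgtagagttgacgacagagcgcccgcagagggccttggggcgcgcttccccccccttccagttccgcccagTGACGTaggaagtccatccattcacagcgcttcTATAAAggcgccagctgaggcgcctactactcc
Fosl2: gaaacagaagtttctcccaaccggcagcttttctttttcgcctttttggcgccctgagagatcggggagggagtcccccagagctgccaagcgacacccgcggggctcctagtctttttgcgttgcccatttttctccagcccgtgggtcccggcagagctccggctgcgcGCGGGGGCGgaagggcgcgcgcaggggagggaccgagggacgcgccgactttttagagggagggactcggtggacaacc
Jun: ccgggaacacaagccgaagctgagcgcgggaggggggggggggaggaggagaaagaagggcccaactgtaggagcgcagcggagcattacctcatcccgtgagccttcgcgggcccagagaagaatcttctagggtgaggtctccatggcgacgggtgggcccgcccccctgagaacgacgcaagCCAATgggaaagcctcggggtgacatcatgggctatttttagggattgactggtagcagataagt
Junb: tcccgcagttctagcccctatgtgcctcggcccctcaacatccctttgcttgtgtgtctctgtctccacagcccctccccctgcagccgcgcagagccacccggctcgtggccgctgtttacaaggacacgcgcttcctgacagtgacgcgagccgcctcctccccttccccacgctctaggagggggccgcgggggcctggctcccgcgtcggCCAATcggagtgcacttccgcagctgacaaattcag
Atf3: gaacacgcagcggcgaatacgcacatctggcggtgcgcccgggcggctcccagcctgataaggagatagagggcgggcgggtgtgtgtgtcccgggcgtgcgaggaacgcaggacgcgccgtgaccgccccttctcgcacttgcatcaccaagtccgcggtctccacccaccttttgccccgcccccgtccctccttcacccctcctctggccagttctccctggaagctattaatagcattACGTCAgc
The Fos window holds the cyclic AMP response element core 66 to 61 bases before the start and the TATA box 33 to 28 bases before it. Atf3 holds the same core on the opposite strand, 8 to 3 bases before its start. This core was found in 2 of the 8 windows and in 6.47% of all 32841 windows of that length, and the TATA box in 1 of 8 and in 12.4%. The Egr1 site stands in the Fosl2 window 79 to 71 bases before the start, and it was found in 2 of 8 windows and in 2.57% of all. The CCAAT box stands 65 to 61 bases before the start of Jun and 36 to 32 bases before that of Junb, and it was found in 3 of 8 windows and in 33.9% of all. Neither the AP-1 site nor the CArG box was found in the 8 windows, against 4.46% and 1.47% of all windows. Sites further upstream than 250 bases and sites with other letters were not searched, and Egr1 and Ier2 had no window. The absence therefore does not mean that these genes lack such sites. These matches describe letters in the windows and no binding was measured.

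The arrays themselves were alike in the number of probes they detected. Between 18916 and 19402 of the probes on an array were detected, meaning a detection p under 0.05 against the negative control beads, and the lowest detected signal on an array lay between 66.8 and 70.2. A probe entered the test where it was detected on at least 3 of the 6 arrays, which left 19590 probes. Their log2 values correlated with r from 0.994 to 0.995 between arrays of one tissue and from 0.955 to 0.962 between tissues. SE and NE differed at an adjusted p under 0.05 for 37.3% of the tested probes, 17.1% higher in SE and 20.2% higher in NE. All adjusted p-values are from limma over all tested probes, and since each tissue had 3 pools they measure the spread among those pools only. The labelled tissues carried their markers. All 10 tested SE markers, among them Krt8, Cdh1 and Wnt6, were higher in SE, and all 7 tested NE markers, among them Otx2, Rax and Lhx5, were higher in NE, while the SE marker Epcam and the NE marker Pax6 were detected on no array. In pooled tissue, fewer cells of a type and less RNA per cell cannot be told apart.

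Of the 10 immediate early genes, 7 had a probe that could be tested. Atf3, Junb and Fosl2 were higher in SE, Jun was higher in NE, and Fos, Egr1 and Ier3 did not pass the threshold. These 4 calls among 7 tested genes make 57.1%, beside 37.3% of all tested probes, and a list of this size chosen with results known supports no reading of that gap. The signals were low. Only 5 of the 13 probes were detected on all 6 arrays, and 5 were detected on none.

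**Figure D1:**
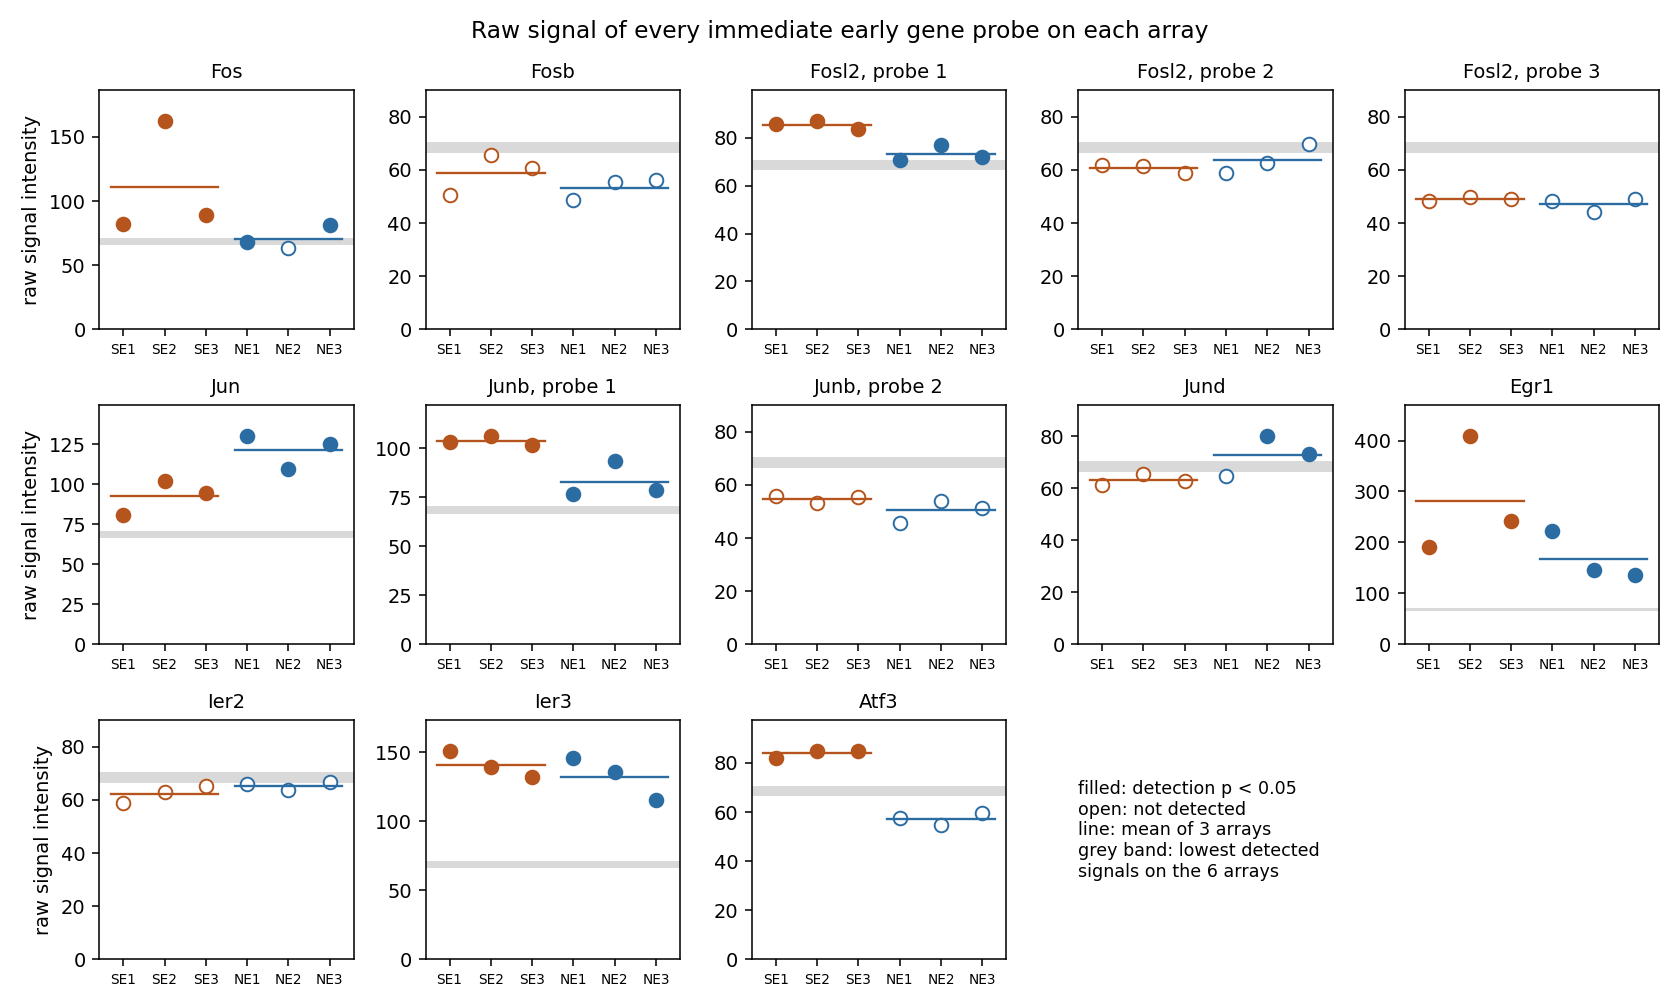
Raw signal intensity (linear scale) of each of the 13 immediate early gene probes on the 3 SE (orange) and 3 NE (blue) arrays, with filled points for detection p under 0.05, open points for undetected, a line for each mean of 3 arrays and a grey band for the lowest detected signals. Fos and Egr1 reach their highest signals, 162 and 408, on SE replicate 2, and Atf3 is detected on all SE arrays and on no NE array.

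Fos, the founding member of its family and the classic partner of Jun in AP-1, had raw signals of 81.9, 162 and 88.9 in SE replicates 1, 2 and 3. Its signals in NE were 68.1, 63.2 and 81.0, with detection p of 0.0349, 0.185 and 0, so that NE replicate 2 did not reach detection. SE replicate 2 stood far above all others, while the remaining SE arrays lay just above the highest NE array and the tissues did not overlap. On the log2 scale after background correction, Fos was 5.98 ± 0.82 in SE and 4.88 ± 0.31 in NE (mean ± SD, n = 3). The difference of 1.10 (standard error 0.37, 95% interval 0.23 to 1.97) corresponded to 2.15-fold and had an adjusted p of 0.0518. Without SE replicate 2 it shrank to 0.63, and as the spread shrank with it the adjusted p was 0.0465. Without SE replicate 1 it was 1.40 with an adjusted p of 0.0282. The call for Fos therefore moved to the other side of the threshold with the choice of arrays.

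Fosb, a close relative of Fos, was not detected on any array. Its signals ran from 48.7 to 65.5, the highest of them on SE replicate 2 and its detection p ran from 0.121 there to 0.841. Fosl2, the Fos relative also called Fra-2, was detected on all 6 arrays by the first of its 3 probes. That probe gave 85.9, 86.8 and 83.7 in SE and 70.7, 76.8 and 72.1 in NE, with a detection p of 0 in SE and of 0.012, 0 and 0.0238 in NE. The 3 SE signals lay within a narrow range and all above the NE signals. The log2 difference was 0.50 (standard error 0.092), or 1.41-fold, with an adjusted p of 0.00422. The other Fosl2 probes were undetected throughout, with signals of 58.8 to 69.7 (detection p from 0.0552 to 0.475) and of 44.2 to 49.9 (0.856 to 0.988), so they give no second reading of the difference.

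Jun, which encodes the AP-1 subunit c-Jun, went the other way. Its signals were 81.1, 102 and 94.4 in SE and 130.0, 109 and 125 in NE, each with a detection p of 0. Every NE array was above every SE array, with the closest pair being SE replicate 2 and NE replicate 2. The mean log2 value was 5.70 ± 0.30 in SE and 6.28 ± 0.20 in NE. The difference of -0.58 (standard error 0.17, 95% interval -0.97 to -0.19) was a 1.5-fold higher level in NE, with an adjusted p of 0.0282. This call was lost when any of 4 arrays was left out, with -0.41 (adjusted p = 0.0589) without SE replicate 1, -0.63 (0.0561) without SE replicate 3, -0.48 (0.0859) without NE replicate 1 and -0.58 (0.0676) without NE replicate 3. It was also lost with no filter on dim probes (adjusted p = 0.0711).

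Junb, a Jun relative that activates most AP-1 sites less strongly than c-Jun, was higher in SE. The first of its 2 probes gave 103, 106 and 102 in SE and 76.6, 93.6 and 78.9 in NE, each with a detection p of 0. SE was nearly level across its pools, and NE replicate 2 was the one NE array that came near it. The log2 difference was 0.66 (standard error 0.14), or 1.58-fold, with an adjusted p of 0.00861. The other Junb probe was undetected on all arrays, at 45.7 to 56.0 with a detection p from 0.470 to 0.948. Jund, the Jun relative that many resting cells express, had signals of 61.4, 65.5 and 63.0 in SE and 64.9, 80.1 and 73.3 in NE. It was detected on NE replicates 2 and 3 only, with detection p of 0 and 0.0184, beside 0.0741 on NE replicate 1 and 0.12 to 0.239 in SE, and was not tested because 3 arrays were required. With no filter it lay at -0.39 on the log2 scale, SE minus NE (adjusted p = 0.123).

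Egr1, a zinc finger factor induced through the MAP kinase pathway, swung widely within both tissues. Its signals were 192, 408 and 243 in SE and 223, 146 and 136 in NE, and it was detected on every array with a p of 0. SE replicate 2 was again the highest array by far, and NE replicate 1 lay above SE replicate 1, so the tissues overlapped. The log2 values were 7.85 ± 0.65 in SE and 6.87 ± 0.56 in NE. The difference of 0.98 (standard error 0.37, 95% interval 0.13 to 1.83), or 1.97-fold, had an adjusted p of 0.0704. It was 0.64 (adjusted p = 0.191) without SE replicate 2, 1.29 (0.0308) without SE replicate 1 and 1.30 (0.0285) without NE replicate 1, so leaving out either of the last 2 arrays brought it past the threshold.

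Atf3, a leucine zipper factor of the stress response, was split by tissue. Its signals were 82.2, 84.7 and 84.8 in SE and 57.6, 54.8 and 59.5 in NE. All 3 SE arrays detected it with a p of 0, and none of the NE arrays did, with detection p of 0.315, 0.628 and 0.393. NE was at the level of undetected probes, whose median signal was 54.4 to 57.7 on the 6 arrays. The fitted log2 difference was 1.03 (standard error 0.073), with an adjusted p of 3.01e-05. Since NE was not above background, the level in SE is given as at least 1.56-fold higher, a bound that was not itself tested. Atf3 entered the test only through the tissue in which it was high, so a difference was built into its selection. Ier3, which encodes a small regulator of cell survival, was detected everywhere with a p of 0, at 151, 139.6 and 132 in SE and 145, 135 and 115 in NE. The tissues overlapped, and the log2 difference of 0.23 (95% interval -0.14 to 0.60) had an adjusted p of 0.295. Ier2, an immediate early gene that encodes a nuclear protein, was undetected on all arrays, with signals of 58.9 to 65.4 in SE and 63.6 to 66.6 in NE and a detection p from 0.0599 to 0.313.

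**Figure D2:**
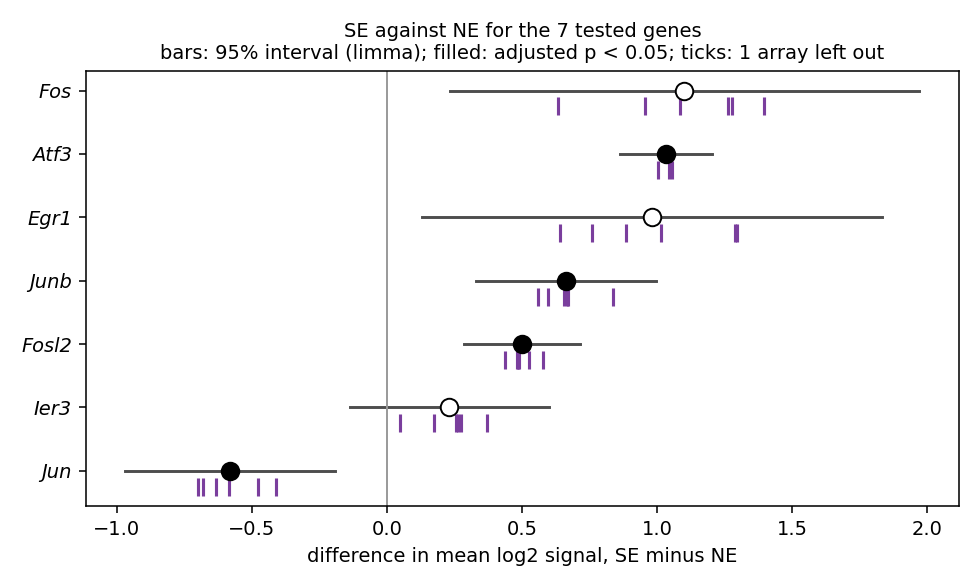
Difference in mean log2 signal, SE minus NE, for the 7 tested genes, with 95% intervals from limma (bars), filled points for an adjusted p under 0.05 and ticks for the values with 1 array left out. Fos and Egr1 have the widest intervals, 0.23 to 1.97 and 0.13 to 1.83, and Jun is the one gene on the NE side, at -0.58.

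The genes differed widely in how much they varied among pools of one tissue. The SD within a tissue, pooled over SE and NE on the log2 scale, was 0.62 for Fos and 0.61 for Egr1, against a median of 0.13 over all tested probes. Only 0.22% of the tested probes varied as much as Fos and 0.24% as much as Egr1. Jun followed with 0.26, which 8.65% of probes reached, Ier3 with 0.24 and 10.7%, and Junb with 0.21 and 17.1%. Fosl2, at 0.11, and Atf3, at 0.049, varied less than the median probe. The Atf3 value is no measure of steady expression in NE, where all 3 arrays lay at background and the offset compresses differences.

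SE replicate 2 was the array on which Fos, Egr1 and Jun all had their highest SE value. Fos was 2.66-fold above the mean of the remaining SE arrays there, the second largest such excess among 19590 tested probes, and Egr1 2.04-fold above it, at rank 11. Jun was 1.28-fold above it, an excess that 3.02% of probes reached. Of the 7 tested genes, 4 were highest on SE replicate 2, 2 on SE replicate 1 and 1 on SE replicate 3, where 33.4% of all tested probes were highest on SE replicate 2. Of the 11 probes that lay at least 1 log2 unit above the mean of the remaining SE arrays on it, 8 belonged to the adult-type beta-globin genes Hbb-bs and Hbb-bt, near-identical copies whose probes can read both, and the other three to Fos, Egr1 and Mthfd1. Hbb-bs had log2 values of 7.90, 8.59 and 6.80 in SE and 8.30, 6.00 and 6.28 in NE. The other globins were not highest on SE replicate 2. Hbb-y had 10.98, 10.73 and 9.91 in SE, and Hba-a1, Hba-x and Hbb-bh1 were likewise highest on SE replicate 1, with SE replicate 2 above the mean of the remaining SE arrays by 0.28 to 0.42. The same 8 globin probes stood at least 1 log2 unit above the mean of the other NE arrays on NE replicate 1, where 4 of the 7 tested immediate early genes had their highest NE value beside 32.1% of all tested probes. On that array Egr1 was 0.95 above the mean of the remaining NE arrays and ranked 34, whereas Fos was -0.05 from it. The part of these globin differences in the Fos and Egr1 values was not tested.

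**Figure D3:**
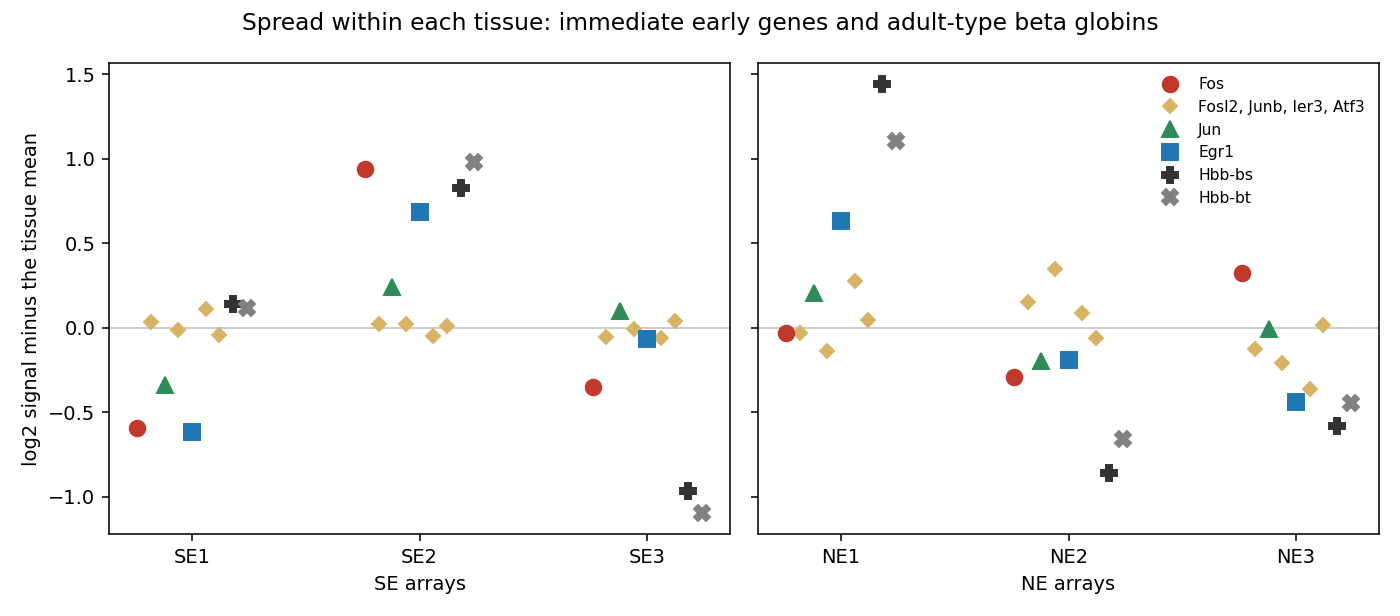
Log2 signal minus the mean of the tissue on each of the 3 SE arrays (left) and 3 NE arrays (right) for Fos, Jun, Egr1, the 4 other tested immediate early genes (small diamonds) and the beta-globin genes Hbb-bs and Hbb-bt. Fos (0.94) and Egr1 (0.68) lie furthest up among the immediate early genes on SE replicate 2, and on NE replicate 1 Egr1 (0.63) is high while Fos (-0.03) is at the mean.

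Markers of other cell types also moved with the tissue, although per the study's methods the isolated pieces held no cephalic mesenchyme. All 8 tested markers of cephalic mesenchyme of a list of 14, among them Twist1 and Foxc1, were higher in SE, and their summed background-corrected signal ran from 2474 to 3245 in SE and from 294 to 463 in NE. The defining collagen genes Col1a1 and Col1a2 were detected on no array. All 4 tested blood markers of 7, led by the embryonic globin Hbb-y, were higher in SE as well, with sums of 3264 to 5885 in SE and 526 to 1562 in NE, and Gata1 was detected on no array. Of the endothelial markers 2 of 7 were tested and neither passed, with sums of 97.4 to 207 in SE and 69.4 to 158 in NE. Endoderm markers and notochord and floor plate markers went the other way, with 2 of 3 and 1 of 2 tested genes higher in NE. The other tested notochord and floor plate marker had a log2 difference of 0.03. The sums of the 3 tested endoderm markers of 8 were 29.5 to 31.8 in SE and 159 to 215 in NE, with Foxa1 and Foxa2 undetected in SE. The remaining 5 endoderm markers were not tested. For the 2 tested notochord and floor plate markers of 4 the sums were 27.3 to 32.7 in SE and 272 to 457 in NE, with Shh undetected in SE. A marker undetected throughout a tissue could enter the test only through the other tissue, so a difference was built into its selection. SE replicate 2 had the lowest mesenchymal and endothelial sums of the SE arrays, 2474 and 97.4. Whether these other cells contributed to the higher Atf3, Junb and Fosl2 signals in SE was not tested.

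Of 21 other immediate early transcription factors 11 were tested, and SE was higher for 4, NE for 1 and neither for 6. This made 45.5% called beside 37.3% of all tested probes, with a median log2 difference of 0.27 beside -0.02 over all tested probes. Id1, an inhibitor of basic helix-loop-helix factors and a target of BMP signals, was 2.55-fold higher in SE (log2 difference 1.35, standard error 0.12, adjusted p = 8.31e-05). Cebpb, a leucine zipper factor, was 2.22-fold higher (adjusted p = 3.47e-05), and Klf6, a zinc finger factor, 2.19-fold (adjusted p = 3.81e-05), while another Klf6 probe gave a log2 difference of 0.54. The gene higher in NE was Hes1, a Notch target that holds neural progenitors undifferentiated, at a log2 difference of -0.90 (adjusted p = 7.70e-04), named here after its value was seen. Nr4a1, Egr4, Klf4, Klf10 and Maff, all of which respond to many of the stimuli that induce Fos, were detected on no array. Egr2, a relative of Egr1, lay at -0.34 on that scale (adjusted p = 0.272).

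Immediate early genes that encode feedback regulators and other proteins, rather than transcription factors, made the longest list. Of 30 such genes 25 were tested, with 13 higher in SE, 5 in NE and 7 not past the threshold, so 72.0% were called beside 37.3% of all probes, and their median log2 difference was 0.53. Gadd45g, a growth arrest and DNA damage response gene, was 5.26-fold higher in SE (log2 difference 2.40, standard error 0.11, adjusted p = 2.54e-06), and its other probe gave 2.46. Plk2, a kinase of the polo family, was at least 3.86-fold higher in SE (fitted log2 difference 2.18, adjusted p = 1.03e-05). It was undetected on the NE arrays and, as with Atf3, entered the test only through SE. The same was true of Gadd45b, another of the 13 genes higher in SE. Dusp5, a nuclear phosphatase that switches off ERK, was 3.25-fold higher in NE (log2 difference -1.70, standard error 0.071, adjusted p = 1.99e-06). Of the 5 tested dual specificity phosphatase genes, Dusp6 was higher in SE and Dusp1, Dusp2, Dusp4 and Dusp5 in NE. Dusp6, which switches off ERK in the cytoplasm and is a target of FGF signals, was higher in SE by 0.90 on the log2 scale (adjusted p = 7.00e-05), and Dusp1, an early brake on p38, JNK and ERK, had a difference of -0.43 (adjusted p = 0.00597). Dusp2 and Dusp4 had differences of -0.43 (adjusted p = 0.0265) and -0.53 (adjusted p = 0.0283). The other tested probe of Dusp2 gave -0.13, and the other tested probes of Dusp4 differed less, 1 of them in the opposite direction. Zfp36, which speeds the decay of short-lived transcripts, was higher in SE by 1.66 (adjusted p = 1.82e-05), and its relative Zfp36l1 had a difference of -0.65 (adjusted p = 5.35e-04). Other than Dusp5, the phosphatase and Zfp36 genes were picked after their values were seen. The count higher in NE was 3 without SE replicate 3 or NE replicate 2. On SE replicate 2, 12 of the 25 genes (48%) had their highest SE value, beside 33.4% of all tested probes. Of the 11 other immediate early transcription factors tested, 3 were highest on SE replicate 2 and 6 on SE replicate 3.

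**Figure D4:**
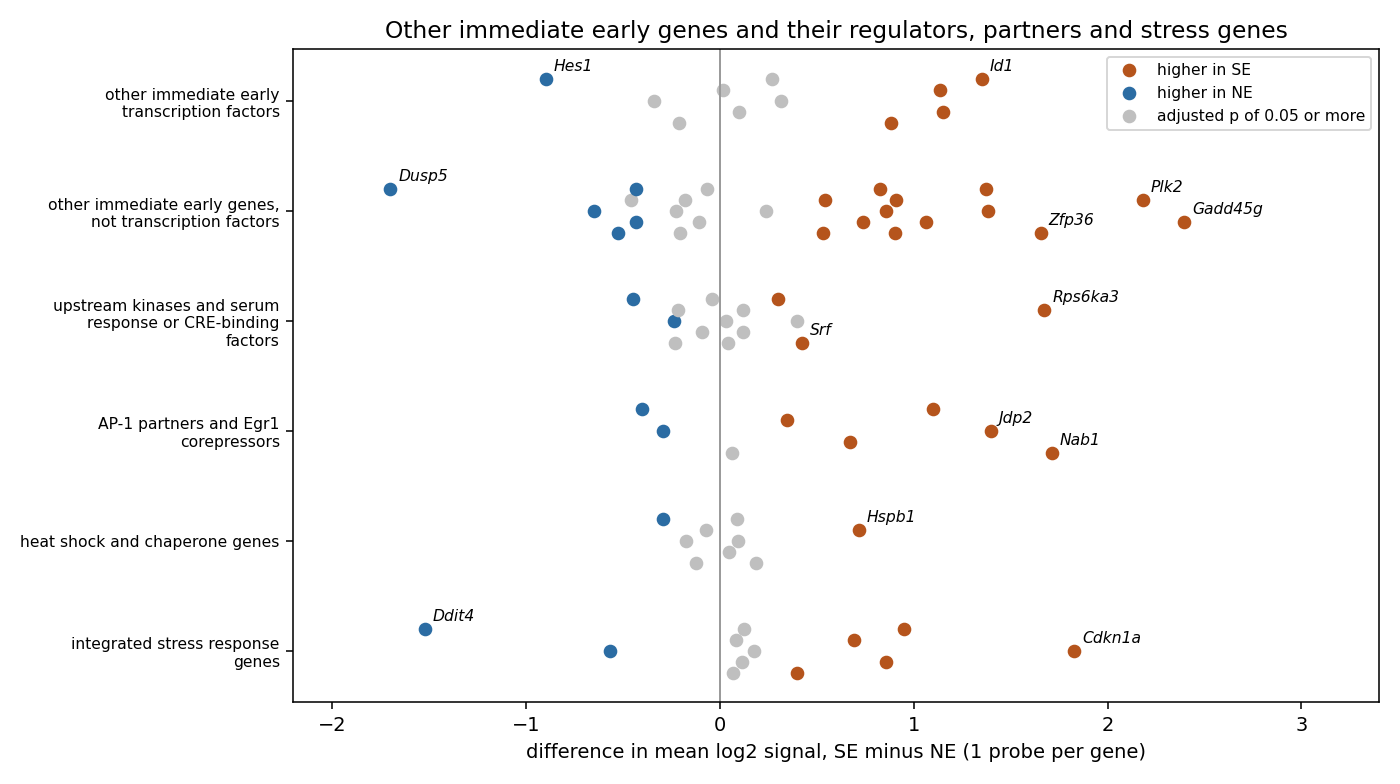
Difference in mean log2 signal, SE minus NE, of each tested gene (1 probe a gene) in 6 lists of related genes, in orange where higher in SE, blue where higher in NE and grey where the adjusted p was 0.05 or more. Immediate early genes that are not transcription factors spread from -1.70 (Dusp5) to 2.40 (Gadd45g), whereas the heat shock genes stay between -0.29 and 0.72.

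Of 23 listed kinases and factors that act upstream of the immediate early genes, 14 were tested, and 3 passed on the SE side, 2 on the NE side and 9 on neither, with a median of 0.036. The share called, 35.7%, was near the 37.3% of all tested probes, and the count on the NE side was 1 when any 1 array was left out. Rps6ka3, the ERK-activated kinase RSK2, was 3.19-fold higher in SE (log2 difference 1.67, adjusted p = 4.77e-06). Rps6ka5, the kinase MSK1 that acts on CREB and histone H3, was 1.36-fold higher in NE (log2 difference -0.45, adjusted p = 0.00513). Its other tested probes gave -0.39 and -0.09. Srf, the serum response factor that drives Fos and Egr1 through CArG boxes, was 1.34-fold higher in SE (adjusted p = 0.00784). Among AP-1 partners and Egr1 corepressors 8 of 12 were tested, with 5 higher in SE, 2 in NE and 1 not past, or 87.5% called beside 37.3% of all tested probes. Nab1, which binds Egr1 and represses its targets, was 3.27-fold higher in SE (log2 difference 1.71, adjusted p = 8.49e-06), and its 3 other probes gave 1.32, 1.07 and 1.31. Jdp2, a leucine zipper repressor that pairs with c-Jun, was at least 2.16-fold higher in SE (fitted log2 difference 1.40, adjusted p = 8.58e-05). It was undetected in NE and tested only because SE passed the filter. Batf3, which also pairs with Jun proteins, was 2.14-fold higher in SE (adjusted p = 4.24e-04). As with Jdp2, Batf was higher in SE but undetected in NE and tested only through SE. The count of these partners higher in SE was 2 when any 1 SE array was left out, where Jdp2 and Batf could no longer be tested. The count higher in NE was 1 without SE replicate 2, SE replicate 3, NE replicate 1 or NE replicate 2 and 0 without NE replicate 3.

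The last lists read stress more broadly. Of the heat shock and chaperone genes 9 of 14 were tested, with 1 higher in SE, 1 in NE and 7 not past, or 22.2% called beside 37.3% of all tested probes, and a median of 0.044. Hspb1, a small heat shock protein, was at least 1.27-fold higher in SE (fitted log2 difference 0.72, adjusted p = 0.00145). It too was undetected in NE and entered the test only through SE. At a detection p under 0.01, or when any 1 SE array was left out, it was not tested. Hsph1, a large cochaperone, was 1.22-fold higher in NE (adjusted p = 0.0448), a call that was lost with no filter on dim probes and when SE replicate 1, SE replicate 3 or any 1 NE array was left out. Atf3 acts downstream of Atf4 in the integrated stress response. Of a list of genes of this and other stress responses all 12 were tested, with 5 higher in SE, 2 in NE and 5 not past. This made 58.3% called beside the same 37.3%, with a median of 0.15. As the list also held Cdkn1a, Mdm2, Hmox1 and Vegfa, the share does not read the integrated stress response alone. Cdkn1a, the cell cycle inhibitor p21, was 3.55-fold higher in SE (log2 difference 1.83, adjusted p = 6.05e-06), and its other probe gave 0.72. Ddit4, an inhibitor of mTORC1, was 2.87-fold higher in NE (log2 difference -1.52, adjusted p = 9.49e-05), and Hmox1, which breaks down heme, 1.93-fold higher in SE (adjusted p = 0.0019). Ddit3, the stress factor CHOP, and Atf4 itself, which stands among the AP-1 partners, had log2 differences of 0.12 and 0.06, with adjusted p of 0.368 and 0.57.

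The genes whose pattern over the 6 arrays was most like that of 4 immediate early genes were sought among 2384 tested probes that had 1 gene name and varied by at least 1 log2 unit. For Fos the likest were Trim29 (Pearson r of 0.974), Ovol2 (0.947), Wdr31 (0.940), Elf3 (0.914) and Artn (0.914), and 7 probes reached 0.9. For Egr1 they were Adamts9 (0.922), Ncoa4 (0.922), C2cd4a (0.910), Arhgap29 (0.901) and Ajuba (0.896). For Jun they were Fnip1 (0.989), Mkks (0.980), Spag9 (0.964), Stk32b (0.959) and H2bc8 (0.958). The Atf3 pattern was the tissue split itself, since 1017 probes reached 0.9 with it, led by 2 probes of Stard10 and by Ces1d, Cdc42ep3 and Rhbdf1, each at 0.999. With 6 arrays in 2 tissues these values describe likeness only and carry no test.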

How the data were processed

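RNA of 6 samples, 3 SE and 3 NE, was amplified, labelled with biotin and hybridised to single-colour Illumina MouseWG-6 v2 arrays. The authors read the arrays on a BeadArray Reader and used BeadStudio (version not stated) to make the values. Their deposited table holds a signal intensity on a linear scale, with no background subtraction, and a detection p-value against negative control beads for each of 45281 probes and each array. The deposited scaled intensity values equal those signals times a single factor for each array and were used as an alternative. Arrays were matched to tissues through the labels, and 0 columns of per-sample values were left unused. In the study's own heat map the patterns of NE replicates 2 and 3 appear exchanged relative to the labels, which leaves the identity of these arrays uncertain but does not touch the comparison of the tissues.

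Background correction and quantile normalization (neqc, offset 16, limma 3.58.1 in R 4.3.3) gave log2 values. Probes detected at a p under 0.05 on no fewer than 3 of the 6 arrays were fitted with lmFit and eBayes, SE minus NE, and p-values were adjusted over all 19590 tested probes by Benjamini and Hochberg's method. A fold change is on this log2 scale and is compressed for dim probes by the offset. Where a tissue was undetected on all its arrays, the bound is the mean of the bright tissue against, per array, the higher of the lowest detected value and the probe's own value. An adjusted p given with such a bound belongs to the fitted log2 difference and not to the bound. Symbols came from the platform annotation, updated through Entrez identifiers. It gave 34885 probes 1 symbol, 18 several and 10378 none, and 2956 tested probes without a single symbol stay unnamed. A gene was read from its tested probe with the highest mean. Named were all 10 genes, up to 3 called genes of each of 6 lists by size of the log2 difference, and for 4 genes the 5 probes of highest Pearson r. The genes and lists were chosen with earlier results of these data known. The fit was tested on simulated data. Alternatives covered the normalization, offset, filters, variance trend, probe choice, replicate block and each array left out. Python 3.11.15 with matplotlib 3.10.9 made the plots. The number of arrays limits the precision.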

Additional observations from a re-analysis of the deposited data

How the results depend on the processing

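The calls of Atf3, Fosl2, Junb and Ier3 held their side of the threshold under every alternative that could test them. Atf3 could not be tested where an SE array was left out or detection on all 6 arrays was required. Except with no filter on dim probes, Atf3 entered the fits only through SE, so a difference was built into its selection there too. Fos and Egr1 passed the threshold without background correction, with log2 differences of 0.52 (adjusted p = 0.0313) and 0.73 (0.0258), with an offset of 50, with 0.64 (0.0351) and 0.81 (0.0318), in the deposited scaled values, with 0.66 (0.0205) and 0.77 (0.0253), and with an intensity trend, with 1.10 (0.0125) and 0.98 (0.0171). Under each of these 4 settings 5 genes and 5 probes were higher in SE. Fos also passed with median centring at 1.05 (0.0477) and with a detection p under 0.01 at 1.10 (0.0492), and could not be tested over probes detected on all 6 arrays. Jun lost its call with no filter on dim probes, at -0.58 (0.0711), which left 0 genes and 0 probes higher in NE. Leaving out 1 array gave 0.63 to 1.40 for Fos, 0.64 to 1.30 for Egr1 and -0.70 to -0.41 for Jun, 0 to 1 member genes and probes higher in NE, and 8 to 10 genes higher in NE over the 6 lists, beside 13 with all arrays and with 8 reached without SE replicate 3, NE replicate 2 or NE replicate 3.

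The methods number the SE and NE pools by replicate experiment and compare SE with NE within each replicate. Deviations of same-numbered arrays from their tissue means correlated with r of -0.04, -0.03 and -0.02 over 19590 probes, and the numbers were not taken as pairs. With 3 arrays a tissue and the identity of NE replicates 2 and 3 uncertain, these correlations cannot decide whether the pools were paired. With the replicate number as a block Jun stayed at -0.58 with an adjusted p of 0.0562, leaving 0 genes and 0 probes higher in NE, and Fos had an adjusted p of 0.061. With NE replicates 2 and 3 exchanged in the block Fos was at 1.10 (0.0172) and Jun at -0.58 (0.0638), again with 0 genes and probes higher in NE. No difference of a member gene changed sign. Of 204 counts recomputed for single lists 164 stayed within 1.5 times the value given. Signals near or below the detection limit bound what can be said of Fos, Fosl2 and Atf3 in NE, and of Fosb, Jund and Ier2.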
